A study of Homo sapiens with 10 samples.

Results

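The BEX (brain-expressed X-linked) and TCEAL (transcription elongation factor A-like) genes form a family of small genes that sit next to each other on the long arm of the X chromosome. A list of 10 of them was followed, namely BEX1, BEX2, BEX3, BEX4, TCEAL1, TCEAL3, TCEAL4, TCEAL7, TCEAL8 and TCEAL9, out of 58884 genes in the count tables, and all 10 were matched by symbol to the Ensembl identifier used there. The rule that lists them names the family and uses no measured value, but the list was chosen with earlier results of these data known. Poly(A) RNA was compared between HCT116, a human colorectal carcinoma line with wild-type DNMT1 (6 libraries), and DNMT1 KO, a line derived from it by targeting DNMT1, which encodes the enzyme that copies CpG methylation onto new DNA strands (4 libraries). The derivative is a hypomorph and not a null, since it still makes a shortened DNMT1 at a low level, and it is 1 derived line, so that differences between the lines other than DNMT1 cannot be told apart from its loss. Both lines were grown in the same medium, McCoy's 5A with fetal calf serum, penicillin and streptomycin, and the labels name no treatment that differed between them. By the labels the libraries belong to 4 batches: in batch 1 is replicate 1 of both groups, in batch 2 are replicates 2 and 3 of both, in batch 3 is DNMT1 KO replicate 4 alone and in batch 4 are HCT116 replicates 7, 8 and 9 alone.

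BEX and TCEAL genes are found in placental mammals and encode short proteins with little fixed structure, whose RNA is abundant in brain. BEX3 was first described as a partner of the neurotrophin receptor p75, and BEX2 as part of a complex with LMO2. The TCEAL proteins carry similarity to the elongation factor TFIIS. Several members, among them BEX1, BEX2 and TCEAL7, have been described as silenced with methylation of their promoters in tumours, so a line with less maintenance methyltransferase asks whether members that are silent in the parental line appear.

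Libraries held between 35418732 and 85991812 counts in HCT116 and between 26700853 and 55732013 in DNMT1 KO. The targeted DNMT1 averaged 153 ± 64.2 CPM in HCT116 (SD, n = 6) against 19.5 ± 3.68 CPM in DNMT1 KO (SD, n = 4), where CPM is the count of a gene relative to the library total, scaled by the trimmed mean of M values (TMM). Among genes with 1 to 10 counts, even counts made up 64.4 to 70.0% in 9 libraries and 39.9% in DNMT1 KO replicate 4, so counts of the 9 may come in mate pairs and the counting intervals given here may be too narrow. Replicates are separate cultures according to the study's methods. Because RNA came from bulk cultures, fewer expressing cells and less RNA per cell cannot be told apart.

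The promoters of the members were examined first, because they carry the CpG dinucleotides on which DNMT1 acts. RefSeq promoter windows (GRCh38.p14, from 250 bases before to 50 bases after an annotated transcript start) were found for 9 of the 10 members, in 13 windows, and TCEAL7 had none. Windows of 5 members are shown here 5′ to 3′ with each CpG in capitals. BEX1 is shown as the member with no count in HCT116, BEX4 and BEX2 as the pair with the most similar windows, and TCEAL8 and TCEAL9 as the pair next in similarity.
BEX1, chrX:103064122-103064421, minus strand: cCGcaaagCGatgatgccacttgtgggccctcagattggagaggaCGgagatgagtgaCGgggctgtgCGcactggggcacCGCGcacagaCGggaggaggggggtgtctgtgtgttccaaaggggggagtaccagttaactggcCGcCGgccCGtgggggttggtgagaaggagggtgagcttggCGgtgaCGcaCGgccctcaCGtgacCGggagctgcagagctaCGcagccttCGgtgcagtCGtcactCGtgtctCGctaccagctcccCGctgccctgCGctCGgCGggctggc
BEX4, chrX:103214842-103215141, plus strand: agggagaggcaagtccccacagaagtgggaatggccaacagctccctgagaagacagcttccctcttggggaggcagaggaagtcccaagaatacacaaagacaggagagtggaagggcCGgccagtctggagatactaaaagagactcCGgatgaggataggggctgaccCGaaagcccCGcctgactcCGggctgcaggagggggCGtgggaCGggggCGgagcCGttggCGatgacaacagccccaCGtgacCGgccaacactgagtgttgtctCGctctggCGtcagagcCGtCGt
BEX2, chrX:103310941-103311240, minus strand: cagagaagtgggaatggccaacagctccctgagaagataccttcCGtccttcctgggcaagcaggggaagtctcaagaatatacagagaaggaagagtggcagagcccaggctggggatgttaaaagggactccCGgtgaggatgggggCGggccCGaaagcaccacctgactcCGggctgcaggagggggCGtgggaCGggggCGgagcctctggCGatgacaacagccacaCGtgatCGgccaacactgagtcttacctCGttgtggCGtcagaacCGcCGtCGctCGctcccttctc
TCEAL8, chrX:103255106-103255405, minus strand: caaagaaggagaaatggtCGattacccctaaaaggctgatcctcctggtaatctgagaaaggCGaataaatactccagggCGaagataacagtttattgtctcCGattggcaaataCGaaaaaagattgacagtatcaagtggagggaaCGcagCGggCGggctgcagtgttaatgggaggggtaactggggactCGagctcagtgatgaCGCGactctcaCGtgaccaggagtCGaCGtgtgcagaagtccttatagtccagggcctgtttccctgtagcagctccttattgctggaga
TCEAL9, chrX:103356256-103356555, plus strand: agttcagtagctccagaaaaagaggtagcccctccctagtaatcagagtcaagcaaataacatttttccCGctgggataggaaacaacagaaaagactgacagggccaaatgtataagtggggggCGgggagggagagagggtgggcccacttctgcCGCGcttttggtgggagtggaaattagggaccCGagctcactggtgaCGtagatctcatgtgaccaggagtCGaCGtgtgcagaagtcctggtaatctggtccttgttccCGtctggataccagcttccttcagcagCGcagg

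The windows of BEX4 and BEX2 were alike over most of their length. In a global alignment 242 of 320 columns were identical (75.6%), against a median of 48.4% over the 36 pairs of members (using the first window of each). They share an unbroken run of 45 bases, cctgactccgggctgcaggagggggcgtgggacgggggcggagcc, which holds a GC box. TCEAL8 and TCEAL9 had the next highest identity, 57.4%, with a shared run of 31 bases, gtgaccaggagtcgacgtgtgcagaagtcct. BEX1 and BEX3, at 47.3% identity, shared a run of 35 bases.

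The palindromic E-box CACGTG, the core bound by basic helix-loop-helix factors of the MYC and USF type and itself holding a CpG, lay in the first window of 6 of 9 members, namely BEX1, BEX4, BEX2, TCEAL8, TCEAL4 and TCEAL3. Over all 35116 RefSeq windows 7.26% hold it. Counting every window of a gene, 8 of 9 members had it, with BEX3 and TCEAL1 carrying it in their second window and TCEAL9 in none, while 8.77% of 27305 genes did. It also lay in a window of 3 of the 4 other family genes. In BEX1, in the second BEX3 window and in TCEAL3 it began 47, 47 and 80 bases before the start, and in BEX2 and TCEAL8 19 and 31 bases before it. The promoters of paralogs are related by descent, so the members are not independent draws. Of the other motifs searched on both strands, the GC box GGGCGG was in 6 first windows (44.95% of all windows) and the NF-Y core CCAAT in 3 (34.61%). The cyclic AMP response element TGACGTCA, the TATA box TATAAA, the ETS site CCGGAAGT and the NRF1 core GCGCATGC were in none of the 9 first windows, and their shares over all windows were 1.85, 11.53, 4.14 and 3.05%. No motif on this list contains another, and a match is a match of letters only.

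The number of CpGs did not separate expressed from silent members. The 5 members above 10 CPM per kb of exon in HCT116 had 7 to 17 CpGs in the first window, and the 4 below 1 CPM per kb that had a window had 5 to 30, against a median of 14 over all windows. These ranges depend on the window used. BEX3, with 7 in its first window, had 23 and 32 in its others, and the second windows of BEX4 and TCEAL1 had 17 and 14. BEX1 and TCEAL3, both near or at 0 counts, had 25 and 30. BEX4 and BEX2, with 16 and 17 CpGs and the similar windows shown above, stood at 0.811 and 63.5 CPM per kb in HCT116.

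**Figure D1:**
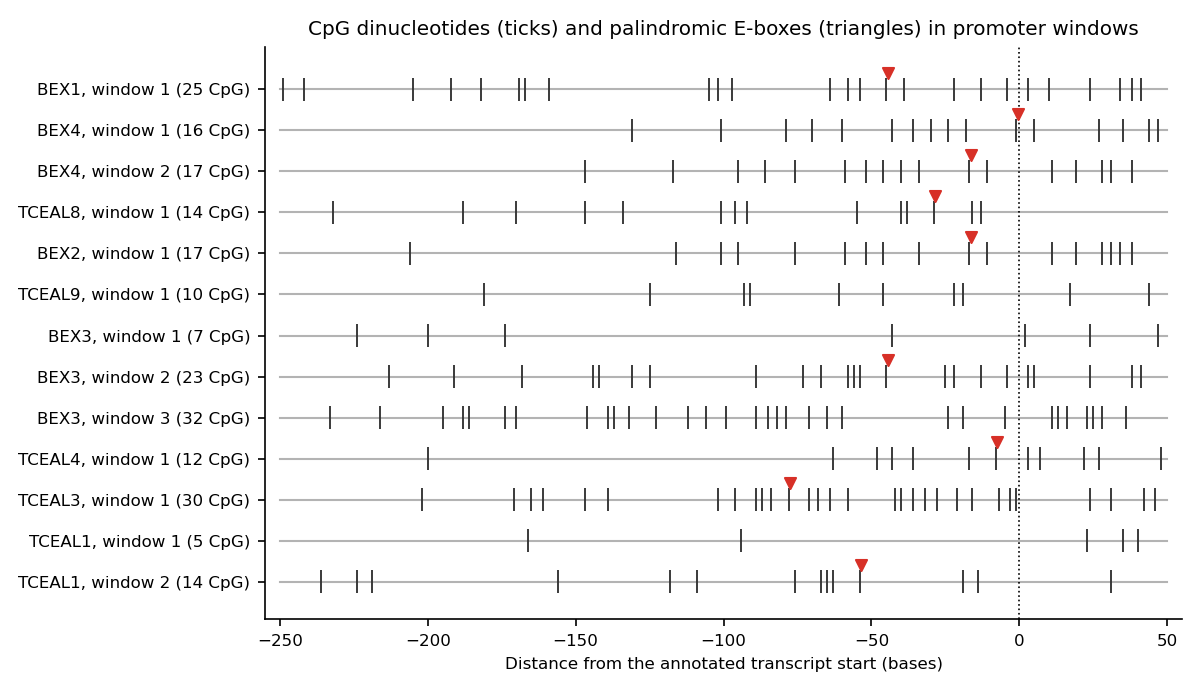
Promoter windows of 9 members, 1 row per RefSeq window, with the distance in bases from the annotated transcript start on the horizontal axis. Ticks are CpG dinucleotides and red triangles palindromic E-boxes, which begin between 3 and 80 bases before the start in every window that has one.

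Levels were compared between members per kb of exon. In HCT116, BEX3 was the most abundant member at 118 ± 20.3 CPM per kb (SD, n = 6), followed by TCEAL8 at 72.7 ± 32.7, BEX2 at 63.5 ± 29.7, TCEAL9 at 26.6 ± 5.26 and TCEAL4 at 20.8 ± 6.48. The libraries of each of these overlapped those of the next in the order. A gap without overlap followed, and BEX4 came at 0.811 ± 0.946 CPM per kb, TCEAL7 at 0.171 ± 0.269, TCEAL3 at 0.0218 ± 0.0195 and TCEAL1 at 0.00644 ± 0.0158, with BEX1 at 0. In DNMT1 KO the same 5 genes led, BEX3 at 141 ± 13.8 CPM per kb (SD, n = 4), TCEAL8 at 40 ± 5.89, BEX2 at 39.4 ± 20.3, TCEAL4 at 25.4 ± 9.78 and TCEAL9 at 23.3 ± 6.11. There BEX3 lay above TCEAL8 in every library with no overlap, whereas the libraries of the 4 genes after it overlapped from one to the next. TCEAL7 was at 0.0868 CPM per kb in DNMT1 KO, BEX1 at 0.0442, TCEAL3 at 0.0233, TCEAL1 at 0.0105 and BEX4 last at 0.00605, and each of these overlapped the next. Among the genes tested, the mean level of BEX3 was at the percentile 97.1 in HCT116 and 98.2 in DNMT1 KO.

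**Figure D2:**
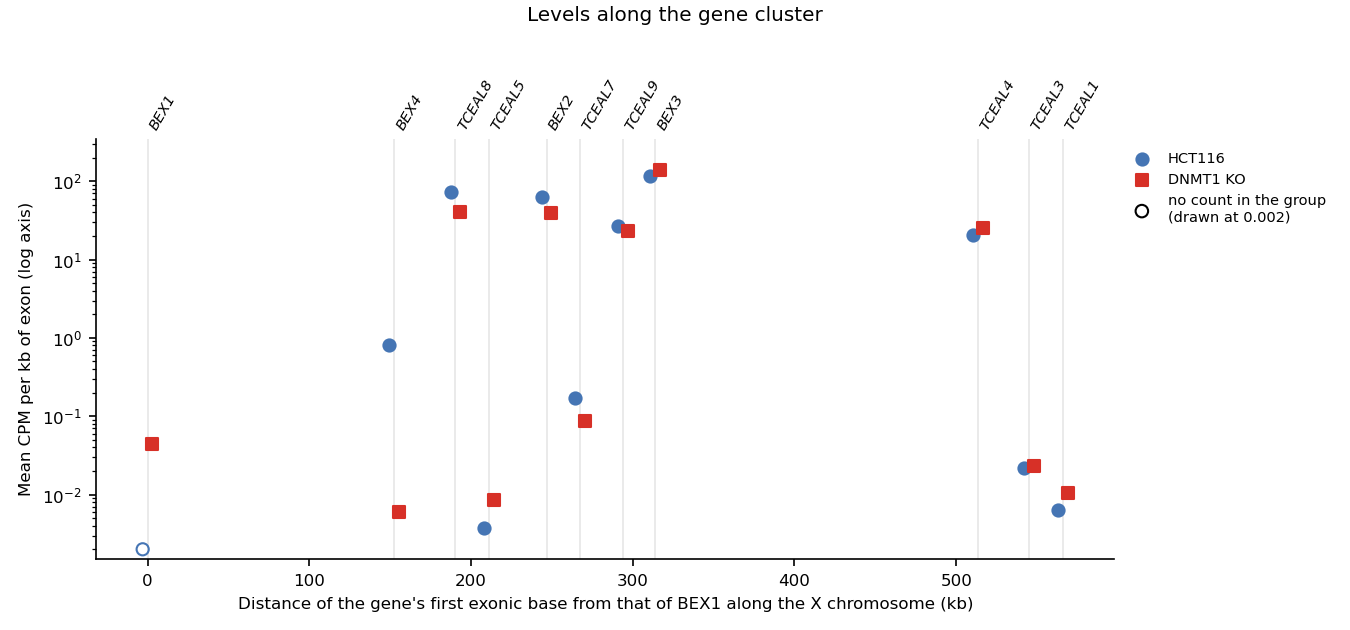
Mean level of each family gene of the main cluster per group (CPM per kb of exon, log axis) against its distance in kb from BEX1 along the X chromosome; the open circle is the group with no count. Genes above 10 CPM per kb and genes below 1 CPM per kb lie intermingled along the cluster in both groups, and BEX4 is the gene whose 2 symbols lie farthest apart.

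Expressed and silent members were interleaved along the cluster. From left to right on hg38, and over the span from BEX1 at 103062651 to the end of TCEAL1 at 103630953, BEX4 (103215108 to 103217246) was followed by the expressed TCEAL8 (103252995 to 103255192), then TCEAL5 with 2 counts in each group, the expressed BEX2 (103309346 to 103311046), the nearly silent TCEAL7 (103330229 to 103332326) and the expressed TCEAL9 and BEX3. TCEAL4 was the expressed member of the distal end, next to TCEAL3 and TCEAL1. The last 2 overlap by 287 exonic bases on the same strand, and reads there cannot be assigned to either. No other member shares exonic bases with another gene.

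Calls needed a Benjamini-Hochberg adjusted p under 0.05 in edgeR's quasi-likelihood test together with a log2 fold change past 1 in either direction. Over all 19279 genes tested 13.9% were called, 7.42% higher and 6.49% lower in DNMT1 KO, with a median log2 fold change of -0.07. Of the 10 members 6 had enough counts for the test, namely BEX2, BEX3, BEX4, TCEAL4, TCEAL8 and TCEAL9. None was called higher, 1 was called lower (BEX4), and their median log2 fold change was -0.44, with 2 of the 6 values positive. Among these 6, none was higher at an unadjusted p under 0.05 (edgeR) either, and 2 were lower, BEX4 and TCEAL8. Calls by DESeq2 were 0 higher and 1 lower of 6. On the X chromosome as a whole, 80 of 754 tested genes were called higher (10.6%) and 42 lower (5.57%).

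BEX4 (ENSG00000102409), which encodes a protein that binds microtubules and the deacetylase SIRT2, was the only member called. In HCT116 it had 12, 122, 96, 26, 14 and 10 counts in replicates 1, 2, 3, 7, 8 and 9, or 0.371, 2.75, 2.57, 0.362, 0.217 and 0.116 CPM. In DNMT1 KO it had 0, 0, 2 and 0 counts in replicates 1 to 4, or 0.0317 CPM in replicate 3. The 2 groups did not overlap, which held for 15.2% of the genes tested, and within HCT116 both libraries of batch 2 stood far above the other 4. Over each group 280 counts stood against 2, a level 78.1-fold lower in DNMT1 KO with a 95% exact counting interval of 21.4 to 648. With every count halved to 140 and 1, for the case that mates were counted separately, the interval was 13.8 to 3110. Without DNMT1 KO replicate 3 the group had no count, and the pooled HCT116 level was 34.6 times a floor of 3 counts over the group. These folds and intervals leave out the spread within HCT116, where batch 2 gave 218 of the 280 counts. The fit by edgeR gave a log2 fold change of -6.39 (SE 1.33, adjusted p = 0.00339), a value that depends on the prior count because 3 of 4 libraries were at 0. Without HCT116 replicate 7 the gene was too low for the default filter and was not tested, and without a filter its log2 fold change was then -6.62 (edgeR, adjusted p = 5.79e-05). Within batch 1 the counts were 12 against 0, and within batch 2 they were 218 against 2. BEX4 was lower in the DNMT1 KO library or libraries of both batches that hold both groups. It remained a gene of low level throughout, at the percentile 28.1 of tested genes in HCT116 per kb.

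BEX2 (ENSG00000133134), the LMO2-associated member, varied widely within HCT116. Its HCT116 values were 84.9, 116 and 109 CPM in replicates 1 to 3 and 31.4, 64 and 41.9 CPM in replicates 7 to 9. In DNMT1 KO they were 43.2, 34.2, 80.7 and 27.1 CPM. All of the HCT116 batch 4 values lie within the range of DNMT1 KO, and the values of batches 1 and 2 lie above it. The means were 74.7 ± 35.0 CPM (SD, n = 6) and 46.3 ± 23.9 CPM (SD, n = 4), with a log2 fold change of -0.69 (SE 0.40, edgeR, adjusted p = 0.285), which did not pass. Within batch 1 and within batch 2 the log2 ratio of mean CPM + 0.5 was -0.97 in both. With batch as a term over all libraries the log2 fold change was -0.97 (edgeR, adjusted p = 0.0556). Batches that hold 1 group alone do not inform that fold change. It rests on batches 1 and 2 and so is not independent of the within-batch ratios. BEX2 and BEX1 share 26 words of 50 exonic bases, 2.5% of those of BEX2.

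BEX3 (ENSG00000166681), the partner of the p75 neurotrophin receptor, was the steadiest of the abundant members. Its values were 169, 118, 108, 122, 133 and 114 CPM in HCT116 and 163, 167, 138 and 140 CPM in DNMT1 KO. The groups overlapped through HCT116 replicate 1. No change was called, at a log2 fold change of 0.26 (SE 0.20, edgeR, adjusted p = 0.459), and the within-batch log2 ratios were -0.05 in batch 1 and 0.43 in batch 2.

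BEX1 (ENSG00000133169), a signalling adaptor of the same receptor, had no count in any HCT116 library, and in DNMT1 KO 0, 4, 0 and 2 counts. Over the group these 6 counts place it at 3.59 times the floor of 3 counts over HCT116 (0.00892 CPM), or 1.79 times that floor if every count is halved. That halving includes the 2 counts of DNMT1 KO replicate 4, the library without mostly even counts. The counting error of the 6 counts is not included in these values. It was too low for the main test, and without a filter edgeR gave an unadjusted p of 0.0134 and an adjusted p of 0.0964, whereas DESeq2 gave an unadjusted p of 0.21. Of its exonic words of 50 bases 4.0% are also found elsewhere in hg38, and all 26 of these are in the expressed BEX2, whose part in the 6 counts was not tested. BEX1 thus remained near the limit of detection in both lines.

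TCEAL8 (ENSG00000180964) came nearest to a call among the TCEAL genes. It was at 82.7, 62.5, 49.3, 60.7, 146 and 127 CPM in HCT116 and at 58.7, 47.6, 43.9 and 43.4 CPM in DNMT1 KO. HCT116 replicates 8 and 9 stood above every other library, and the lowest HCT116 library lay below the highest DNMT1 KO library. Means were 88.1 ± 39.6 CPM (SD, n = 6) and 48.4 ± 7.13 CPM (SD, n = 4), with a log2 fold change of -0.86 (SE 0.31, edgeR, adjusted p = 0.0775). The log2 ratios within batches 1 and 2 were smaller in size, -0.49 and -0.29. With batch as a term over all libraries the log2 fold change was -0.36 (edgeR, adjusted p = 0.519), a value that rests on the same batches 1 and 2. Without HCT116 replicate 3 the adjusted p was 0.0331 (edgeR) at a log2 fold change of -0.95, still inside the fold limit.

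TCEAL4 (ENSG00000133142) had values of 60.2, 54.4, 79.7, 41.0, 44.7 and 34.1 CPM in HCT116 and 47.7, 92.6, 76.1 and 39.8 CPM in DNMT1 KO. The groups overlapped at a log2 fold change of 0.29 (SE 0.29, edgeR, adjusted p = 0.572), and the ratios had opposite signs in batch 1 (-0.33) and batch 2 (0.33). TCEAL9 (ENSG00000185222), also known as WBP5, was at 44.6, 44.3, 55.8, 45.0, 70.9 and 54.8 CPM in HCT116 and at 45.1, 63.3, 37.5 and 38.1 CPM in DNMT1 KO. It too overlapped between groups, with a log2 fold change of -0.19 (SE 0.23, edgeR, adjusted p = 0.643), and its within-batch ratios were 0.02 and 0.01.

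**Figure D3:**
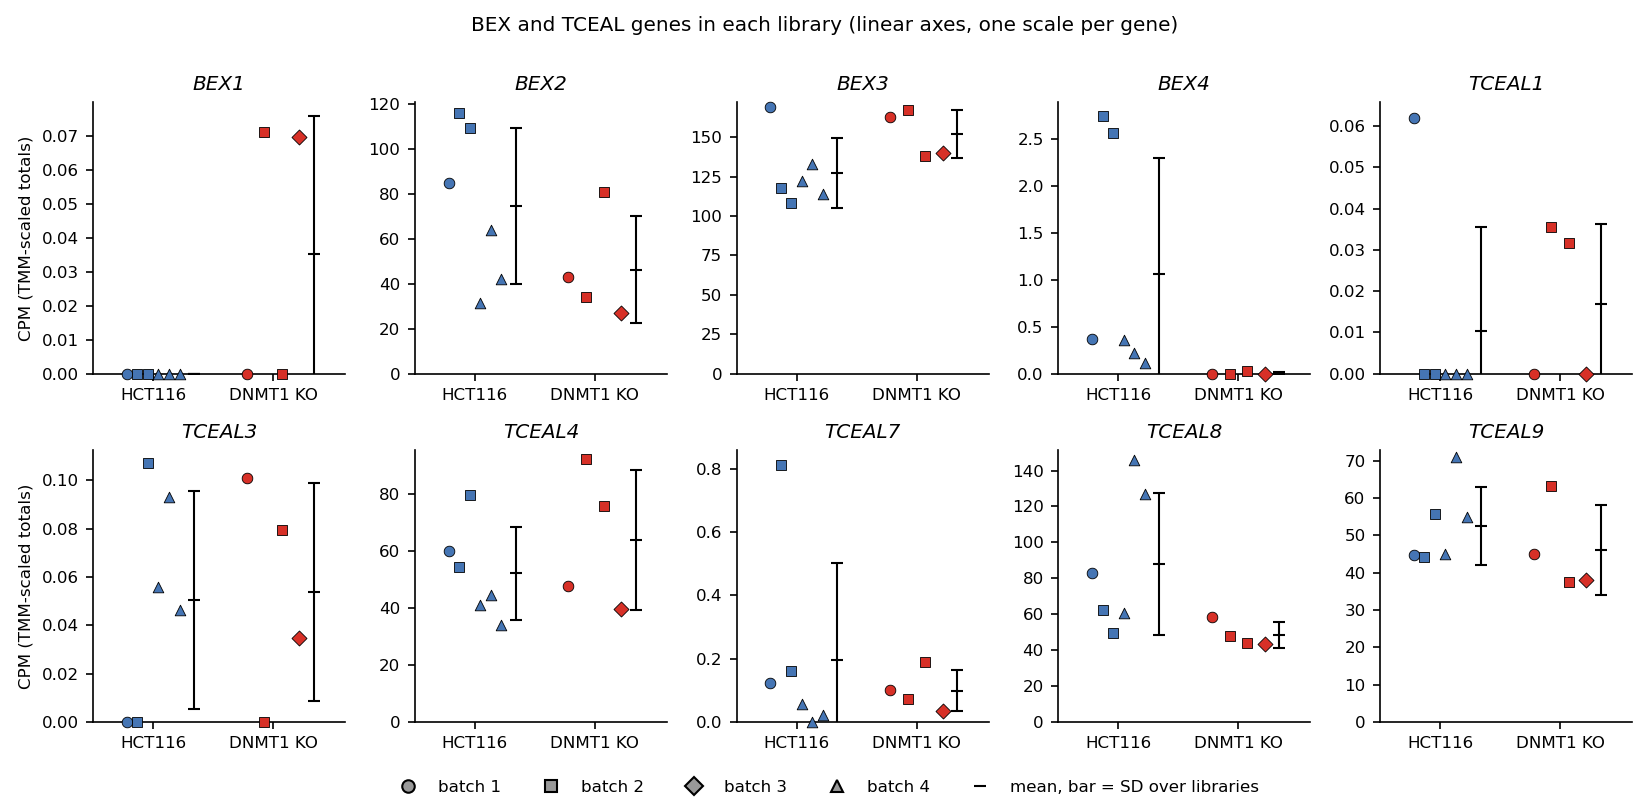
CPM of each member in each library, on linear axes with a scale per gene; symbols give the batch, and the bar beside each group is the mean with its SD (n = 6 and n = 4). BEX4 is at or near 0 in all 4 DNMT1 KO libraries and highest in the 2 HCT116 libraries of batch 2, whereas the groups overlap for the other 9 genes.

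TCEAL7, TCEAL3 and TCEAL1 were read in only a few counts. TCEAL7 (ENSG00000182916), described as a negative regulator of NF-kB signalling, had 4, 36, 6, 4, 0 and 2 counts in HCT116 and 4, 4, 12 and 1 in DNMT1 KO. HCT116 replicate 2 held most of them, and the ratio of DNMT1 KO to HCT116 over the group was 0.724 with a 95% counting interval of 0.414 to 1.22. Without that library 16 counts stood against 21, and the ratio turned to 2.04 (1.02 to 4.19). The library was left out after its value was seen, and the interval was not recomputed with counts halved. Within batch 1 the TCEAL7 counts were 4 against 4. TCEAL3 (ENSG00000196507) had 18 counts against 10, a ratio of 0.996 (0.411 to 2.28), and 11.5% of its exonic words of 50 bases occur elsewhere in hg38. TCEAL1 (ENSG00000172465), whose product was described as a phosphoprotein that modulates transcription, had 2 counts in HCT116, both in replicate 1, and 4 in DNMT1 KO, a ratio of 3.59 (0.514 to 39.6). In a fit without a filter on low counts the adjusted p of these 3 genes ran from 0.581 to 0.99 (edgeR), so that no difference was detected at this depth.

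**Figure D4:**
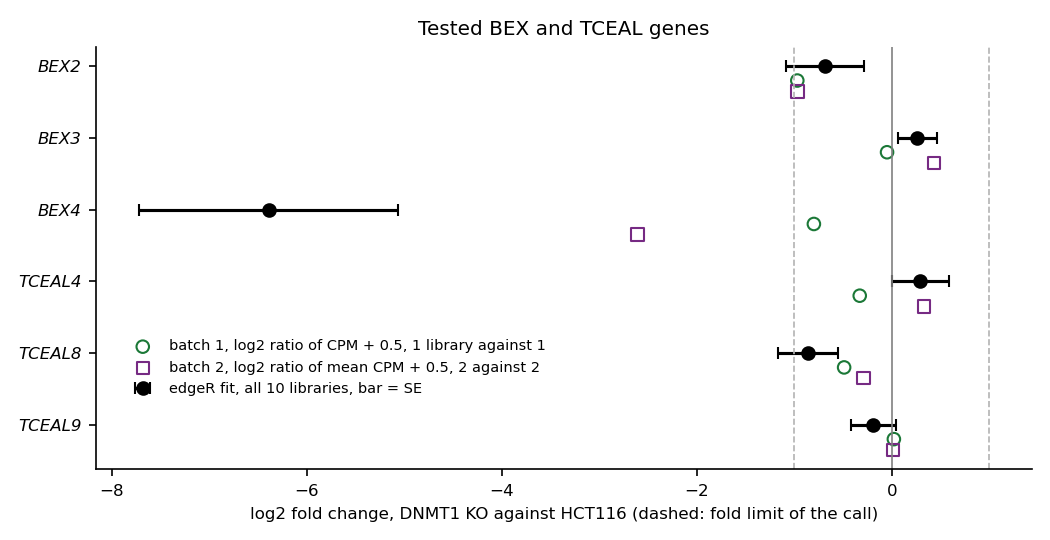
Log2 fold change of the 6 tested members in DNMT1 KO against HCT116 (edgeR, bar = SE), with the log2 ratios of mean CPM + 0.5 within batch 1 and within batch 2 as open symbols; dashed lines are the fold limits at -1 and 1. BEX4 is the single gene beyond a limit, and the added 0.5 CPM shrinks its within-batch ratios to -0.8 and -2.61.

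The make-up of the family RNA was described per library as the share of each member in the summed CPM per kb. BEX3 held 39.3 ± 6.40% in HCT116 (range 33.9 to 49.2%) and 52.6 ± 5.29% in DNMT1 KO (45.3 to 57.9%), with overlapping ranges. TCEAL8 held 23.9 ± 9.38% and 14.9 ± 2.17%, and BEX2 20.7 ± 9.24% and 14.4 ± 6.74%. TCEAL8 had its largest shares in HCT116 replicates 8 and 9, and BEX2 had its largest in HCT116 replicates 2 and 3. The summed level itself was 302 ± 44.3 CPM per kb in HCT116 and 269 ± 30.7 in DNMT1 KO, with ranges of 229 to 352 and 224 to 292 that overlapped. These shares add up to the whole, so that they do not vary independently.

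**Figure D5:**
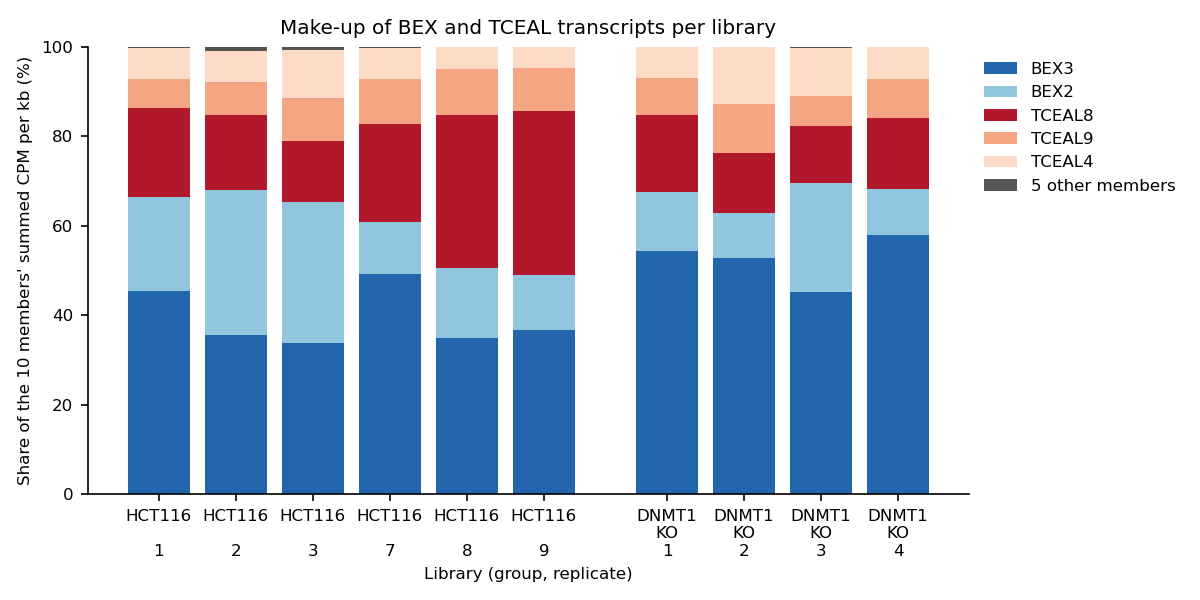
Share of each member in the summed CPM per kb of the 10 members, 1 bar per library, in percent. BEX3 takes 45.3 to 57.9% in DNMT1 KO and 33.9 to 49.2% in HCT116, and the 5 members other than BEX3, BEX2, TCEAL8, TCEAL9 and TCEAL4 make up under 1% of every bar.

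The 6 HCT116 libraries were also compared with each other, batch 4 against batches 1 and 2. Over 18656 genes 8.03% were called, 3.09% higher and 4.94% lower in batch 4. Of the 6 members tested there BEX4 and BEX2 were called lower in batch 4. BEX4 was at 1.9 ± 1.32 CPM in batches 1 and 2 and at 0.232 ± 0.124 CPM in batch 4 (SD, n = 3 each), with a log2 fold change of -3.06 (edgeR, adjusted p = 0.0203). BEX2 was at 104 ± 16.5 and 45.8 ± 16.7 CPM, with a log2 fold change of -1.20 (edgeR, adjusted p = 0.0401). With 1 library fewer, both calls were lost in most fits, while the folds stayed of like size, from -3.54 to -2.70 for BEX4 and from -1.50 to -0.99 for BEX2. The call of BEX4 was lost without HCT116 replicate 2, 7, 8 or 9 (adjusted p from 0.0635 to 0.103, edgeR) and that of BEX2 without replicate 2, 3, 7, 8 or 9 (adjusted p from 0.0563 to 0.179). Batch 4 holds no DNMT1 KO library. Within HCT116, the highest library of BEX4 was 23.7 times the lowest.

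The 4 other family genes in the tables were near 0. BEX5 had 22 counts in HCT116 and 15 in DNMT1 KO, a ratio of 1.22 (95% counting interval 0.59 to 2.47), TCEAL5 had 2 and 2, TCEAL2 had 0 and 2, and TCEAL6 had none in either group. The ARMCX and GASP genes, a related set of 9 genes of the same chromosomal band, gave 5 tested genes, none called in either direction, none at an unadjusted p under 0.05 and none by DESeq2, with a median log2 fold change of 0.10. ARMCX3, a protein of the outer mitochondrial membrane, was at 48.3 ± 23.6 and 51.9 ± 24.8 CPM. Among 18 protein-coding neighbours within 500 kb on either side, 8 were tested and 2 were called higher. The share called higher was 7.42% over all genes tested and 10.6% on the X chromosome. RAB9B, a Rab GTPase, was at 0.118 ± 0.128 CPM in HCT116 and 0.737 ± 0.185 in DNMT1 KO, with a log2 fold change of 2.71 (edgeR, adjusted p = 0.00558). TMSB15B, a beta-thymosin with near-identical copies between which reads may be split, was at 0.134 ± 0.108 and 0.706 ± 0.143 CPM (2.39, adjusted p = 0.0139). MORF4L2, a subunit of chromatin complexes, was the most abundant neighbour at 501 ± 130 and 402 ± 41.0 CPM and did not pass (adjusted p = 0.433).

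The partners of the family were described from short lists, and over all genes tested 7.42% were called higher and 6.49% lower. Of 10 genes around the p75 neurotrophin receptor 7 were tested and 4 were called higher, with none lower at an unadjusted p under 0.05 and none lower by DESeq2. NGFR, the p75 receptor that BEX1 and BEX3 bind, rose from 15.1 ± 6.11 to 58.7 ± 23.5 CPM with a log2 fold change of 1.95 (SE 0.33, edgeR, adjusted p = 0.000594). BDNF, a neurotrophin ligand, rose from 46.9 ± 19.5 to 98.3 ± 8.95 CPM (log2 fold change 1.07, edgeR, adjusted p = 0.0211). NTRK3, a neurotrophin receptor kinase, was called higher as well but stayed at a mean of 0.806 CPM in DNMT1 KO. BDNF was also called higher in HCT116 batch 4 than in batches 1 and 2 (log2 fold change 1.12, edgeR, adjusted p = 0.0319).

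Of 5 binding partners of BEX proteins 4 were tested. Over all genes tested 13.9% were called in either direction, a share to set beside the calls of the lists given here. LMO2, which BEX2 binds, fell from 6.10 ± 4.67 to 1.39 ± 0.939 CPM (log2 fold change -2.11, SE 0.62, edgeR, adjusted p = 0.0289), although the libraries of the groups overlapped. LMO2 was also called lower in HCT116 batch 4 (log2 fold change -1.83, edgeR, adjusted p = 0.019). SIRT2, the partner of BEX4, was at 17.9 ± 3.90 and 28.5 ± 3.77 CPM and missed the threshold (0.67, adjusted p = 0.053). Among 5 genes of the TFIIS family, all tested, TCEA3 alone was called, falling from 2.16 ± 0.557 to 0.814 ± 0.205 CPM (log2 fold change -1.39, edgeR, adjusted p = 0.013). Of 8 NF-kB genes, all tested, TNFAIP3, an inhibitor of the pathway and a target of it, was called higher at 6.08 ± 2.94 and 126 ± 29.3 CPM (4.38, adjusted p = 5.11e-07), and the other 7 were not called.

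The 3 genes outside the family whose course over the 10 libraries was most like that of BEX4 were found by the root mean square distance between centred values of log2(CPM + 0.5). RGS16, a regulator of G-protein signalling, was nearest at 0.14 and was at 18.7 ± 15.4 CPM in HCT116 and 6.29 ± 0.618 in DNMT1 KO. RUBCNL, an autophagy gene, followed at 0.22 with 1.31 ± 1.19 and 0.0397 ± 0.0794 CPM, and ZHX2, a homeobox repressor, at 0.28 with 30.6 ± 19.3 and 9.38 ± 1.03 CPM. All 3 were higher in HCT116, which follows from the way they were picked. The added 0.5 CPM flattens the course of BEX4, a gene of low level. The log2 fold changes of RGS16, RUBCNL and ZHX2 were -1.57, -4.7 and -1.7, against -6.39 for BEX4.

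Cell identity markers also differed between the lines, in both directions. Over all genes tested 7.42% were called higher and 6.49% lower in DNMT1 KO. Of 7 epithelial markers, all tested, 6 were called lower in DNMT1 KO, and their summed level ran from 2850 to 6810 CPM in HCT116 and from 739 to 1540 CPM in DNMT1 KO. EPCAM, the defining marker, was at 307 ± 72.8 and 72.8 ± 14.5 CPM and so was present in both lines. Of the 7, 2 were also called lower in HCT116 batch 4, as BEX4 was, and CDH1, which encodes E-cadherin, was at 247 ± 80.3 CPM in batches 1 and 2 and at 48.1 ± 15.9 CPM in batch 4 (log2 fold change -2.38, edgeR, adjusted p = 0.00423). Of 8 neuronal markers 5 were tested, with STMN2 and RBFOX3 called higher and SYT1 lower, and the sum ran from 59.9 to 209 CPM and from 45.1 to 75.6 CPM. The neuronal genes GAP43 and ELAVL4 had 0 and 2 counts in HCT116 and 10 and 0 in DNMT1 KO. Of 6 fibroblast markers 3 of 4 tested were called higher (sums of 6.47 to 19.8 and 16.6 to 21.4 CPM), of 5 blood markers 1 of 1 tested (0.0677 to 0.535 and 1.84 to 2.75 CPM), with PTPRC, the pan-leukocyte marker, at 2 counts in each group, and of 4 endothelial markers 2 of 3 tested (0.29 to 1.58 and 4.46 to 6.01 CPM). The part of these markers in the values of the BEX and TCEAL genes was not tested.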

How the data were processed

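RNA was measured in 6 HCT116 and 4 DNMT1 KO libraries. The authors made stranded poly(A) paired-end libraries, trimmed reads with TrimGalore 0.4.1 after FastQC 0.11.4, aligned them without splicing to hg38 (bowtie2) and dropped alignments of low mapping quality. They counted reads in exons by featureCounts, for which no strand setting is named. The deposited tables, 1 per library, hold these raw counts. A further 3 tables have no listed sample and were not used. Libraries were fitted in R 4.3.3 with edgeR 4.0.16 (TMM, filterByExpr, glmQLFit and glmQLFTest, group alone, two-sided) over 19279 genes, and p-values were adjusted by Benjamini-Hochberg. The SE was taken as log2 fold change over the root of F, without sign. The fit was tested on simulated data. No 2 tables were identical.

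The members, gene lists, motifs and rules were chosen with earlier results of these data known. Named were all members, the 4 other family genes, DNMT1, up to 3 called genes of each list at 1 CPM or more (6 for neighbours) and the 3 genes most like BEX4. Other genes named in the text (those at 0, and those that just missed the threshold or stayed below 1 CPM) were chosen after their values were seen. Intervals and floors (95%, 3 counts) cover counting error only. Sequences are RefSeq's, aligned with Biopython (match 1, mismatch -1). Alternatives were RLE factors, library totals alone, other filters, DESeq2 1.42.0, batch as a term, single batches, a replicate block, halved counts and leaving out each library. Added after seeing the data were fits with no filter and either HCT116 replicate 7 left out or counts halved, and the TCEAL7 ratio without HCT116 replicate 2. Values of some genes on the lists are not reported here.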

Additional observations from a re-analysis of the deposited data

Results flagged for a closer look

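In 3 of 19 groups of libraries examined (each member in each line, where the values were not all equal), 1 library lay farther from the others than Dixon's 95% limit allows. Chance flags about 1 in 20 such groups. TCEAL7 was at 0.812 CPM in HCT116 replicate 2 (36 counts), with the other 5 libraries between 0 and 0.16 CPM. BEX4 was at 0.0317 CPM (2 counts) in DNMT1 KO replicate 3 and at 0 in the other 3 libraries. TCEAL1 was at 0.0619 CPM (2 counts) in HCT116 replicate 1 and at 0 in the other 5. In the last 2 cases every other library is at 0, so that any count in a single library passes the limit.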

How the results depend on the processing

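BEX4 was called lower in each of the 20 alternatives that gave it a value (log2 fold change -8.78 to -5.83, adjusted p 2.73e-05 to 0.0169). It was not tested, so that 0 members were called lower, with at least 10 counts required in every library, with halved counts and without HCT116 replicate 7. Without a filter it was called in the last 2 cases as well (-6.27 and -6.62). Leaving out single libraries thus gave 0 to 1 members called lower. No member was called higher in any alternative, and BEX2, BEX3 and TCEAL4 kept their sign and were never called. TCEAL8 had an adjusted p under 0.05 without HCT116 replicate 3, and without a filter with halved counts or without HCT116 replicate 7 (0.0331, 0.0466 and 0.0356 in that order), inside the fold limit, whereas its log2 fold change shrank to -0.36 with batch as a term, to -0.29 in batch 2 alone and to -0.35 with the replicate block (adjusted p 0.519, 0.702 and 0.464). TCEAL9 changed sign to 0.013 with library totals alone, 0.012 with batch as a term, 0.014 in batches 1 and 2 with and without that term, and 0.015 in batch 2 alone. With batch as a term the group difference rests on batches 1 and 2, so that these settings are not independent. Over all genes 1431 were called higher and 1251 lower. Requiring 10 counts in every library gave 734 and 766, batch 2 alone 815 and 798, and leaving out single libraries 1214 to 1587 and 987 to 1250. Library totals alone moved the median of all genes by 0.21 and gave 1878 and 956. The call between HCT116 batches ran from 234 (without HCT116 replicate 9) to 3570 genes (without replicate 1). Replicate numbers name cultures, and whether they pair the libraries was not settled. Correlations of deviations between libraries of the same number were 0.41, -0.17 and 0.36. Libraries of the same number also share a batch, and libraries of different number were not compared. With a replicate block, 1232 genes were called higher and 1235 lower, with 0 and 1 members. Stricter filters, single batches and left-out libraries leave fewer genes or libraries in the test, and for the other settings the cause was not tested.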
